A study of Mus musculus with 24 samples.

Results

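Primary microglia of wild-type (WT) C57BL/6 mice, taken at age p0, were compared after 3 h with Re-LPS at 10 ng/ml (LPS-treated, 3 samples) and without a stimulus (untreated, 3 samples). These 6 samples, of 24 in the series, were chosen by their labels and not by any measured value, and replicates 1 to 3 of each group came from independent cell preparations. Total RNA was sequenced, and the values used are read counts per gene. 4 further groups of 3 samples each, all at age p0 and 3 h, are set beside the response: WT microglia with Re-LPS at 0.1 ng/ml, WT microglia with mouse fibronectin (FN) at 100 µg/ml, and microglia of the strain B6.129S4-Cd14tm1Frm/J, which lacks functional CD14 (KO), with Re-LPS at 10 ng/ml and untreated. The model is one of microglia of newborn animals outside the brain, seen at a single time. Whether animals were pooled for a preparation is not given in the sources used here.

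Microglia are the resident macrophages of the brain. Lipopolysaccharide (LPS) is a lipid of the outer membrane of Gram-negative bacteria, and Re-LPS is a short form without the O polysaccharide. CD14 hands LPS to the receptor TLR4 with its partner MD-2. One arm of the signal runs through the adaptor MyD88 to NF-kB and the MAP kinases, which switch on cytokine genes and their own inhibitors. The other runs through the adaptor TRIF to IRF3 and the gene of interferon beta, which acts back on the cells through JAK and STAT proteins to raise interferon-stimulated genes.

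The 6 libraries held between 15499806 and 18138974 counts. Levels below are CPM, read counts relative to library size, after TMM scaling, a factor per library that allows for a few genes taking a large share of the reads. That factor was 0.668, 0.770 and 0.703 in the LPS-treated libraries, against 1.18, 1.25 and 1.30 in the untreated ones, so the scaling bears on every direction given here. Defining markers of microglia and macrophages were present in all 6 libraries, with a summed level over 10 genes of 9669, 9005 and 8915 CPM in LPS-treated and 10254, 9229 and 9649 CPM in untreated samples. Markers of other cells were present at lower sums: 16.9, 44.7 and 27.6 CPM in LPS-treated and 15.4, 33.5 and 19 CPM in untreated samples for 8 astrocyte genes, and 8.26, 27.7 and 42.8 CPM in LPS-treated and 6.65, 18.4 and 39.3 CPM in untreated samples for 8 neuron genes. The 12 oligodendrocyte lineage genes summed to 277, 488 and 226 CPM in LPS-treated and 248, 435 and 225 CPM in untreated samples. Of 10 markers of other leukocytes, 1 passed the filter on low counts, and the T cell genes Cd3g and Cd2 had 0 counts in all 6 libraries. In these bulk samples, fewer cells of a type and less RNA per cell cannot be told apart. The ribosomal RNA gene Rn45s took 5.92% of the counts of LPS-treated replicate 3 and between 0.0346% and 0.785% of those of the other 5 libraries.

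A large share of the genes measured changed with LPS. Of 13294 genes tested, 6570 (49.4%) differed between LPS-treated and untreated microglia at an adjusted p under 0.05 (edgeR's quasi-likelihood test with Benjamini-Hochberg adjustment, used for every adjusted p below). Of these, 3097 (23.3%) were higher and 3473 (26.1%) were lower with LPS, and 6565 of the 6570 moved the same way in 3 of 3 preparations. That agreement follows largely from selecting the genes on these same libraries. The rises were larger than the falls: 354 genes (2.66%) were called higher with a log2 fold change of at least 4, whereas 76 (0.572%) were called lower with one of -4 or below. At 6 and -6 the counts were 159 genes higher (1.2%) and 7 lower (0.0527%). In 6447 genes (48.5%) a call went with groups that did not overlap. Genes called higher held 60.1%, 59.9% and 59.7% of the counts in LPS-treated replicates 1 to 3, against 27.5%, 28.7% and 27.4% in the untreated replicates. The genes with a rise of at least 4 alone held 18.3%, 17.7% and 19.3% of the counts with LPS, against 0.523%, 0.503% and 0.480% without it. The median change over all genes was -0.01 on the log2 scale. That balance follows from the scaling: with library totals and no composition factor the median moved by -0.80, and 1444 genes were called higher and 7408 lower (16.3% of calls higher, against 47.1%), with upper quartile scaling it moved by -0.25, with 2387 higher and 4425 lower (35% of calls higher), and with RLE scaling by 0.07, with 3382 higher and 3231 lower (51.1%). List counts given below with library totals are to be read beside those 1444 and 7408 of 13294 genes. Log2 fold changes below are relative to the TMM scaling and are given as value ± SE.

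**Figure D1:**
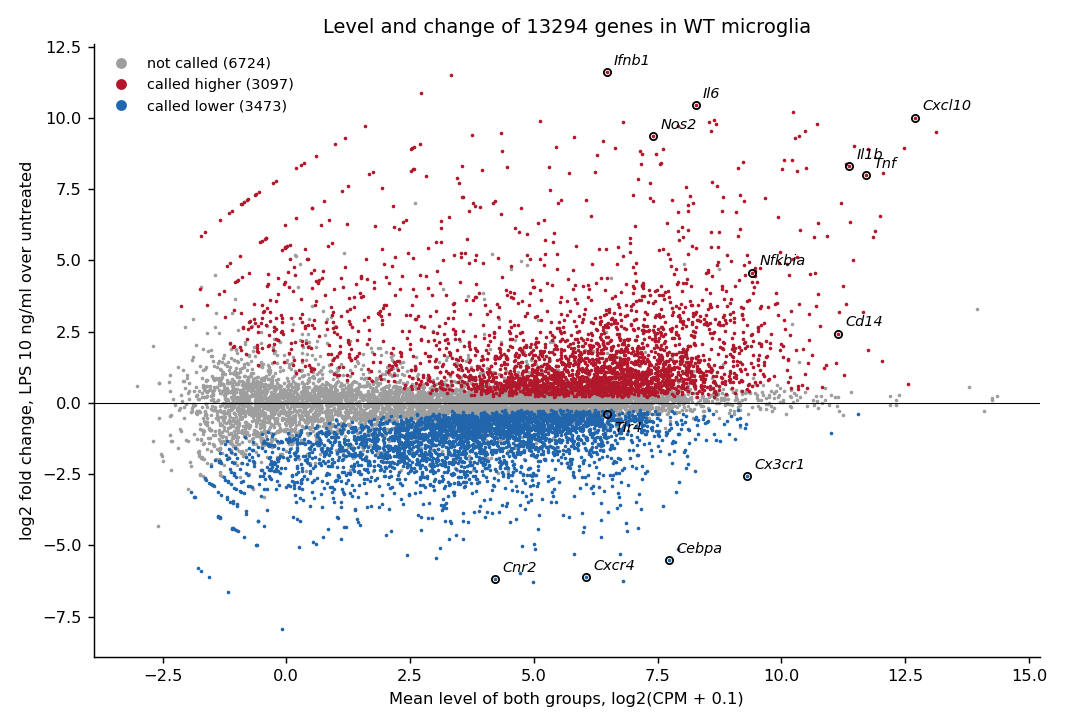
Each point is 1 of 13294 genes: the x axis is the mean level of both groups as log2 of CPM plus 0.1, and the y axis is the log2 fold change of LPS-treated over untreated WT microglia, with 3097 genes called higher in red, 3473 called lower in blue and the 6724 not called in grey. The cloud reaches farther up than down, with 159 genes called higher at 6 or more and 7 called lower at -6 or less.

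The promoters of 4 genes that rose and of 1 that fell are shown first. They were picked by name as examples and not by a rule. How often the motifs occur among the largest rises and falls and over all genes is given after the sequences. For each, the 250 bases before the gene's start are printed 5′ to 3′ on the gene's strand, from RefSeq on GRCm38.p6. Capitals mark matches, on either strand, to a kappaB motif (GGG, any 2 bases, TTTCC), an interferon response motif (GAAA, any 2 bases, GAAA) or an AP-1 motif (TGANTCA), and 0 bases are shared by 2 matches.
Cxcl10, chr5:92348890-92349139, minus strand: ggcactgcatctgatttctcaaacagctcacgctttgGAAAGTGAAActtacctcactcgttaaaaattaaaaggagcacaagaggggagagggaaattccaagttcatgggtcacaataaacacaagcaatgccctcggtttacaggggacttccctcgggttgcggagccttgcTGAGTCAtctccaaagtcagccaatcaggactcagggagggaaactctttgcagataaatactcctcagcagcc
Rsad2, chr12:26456453-26456702, minus strand: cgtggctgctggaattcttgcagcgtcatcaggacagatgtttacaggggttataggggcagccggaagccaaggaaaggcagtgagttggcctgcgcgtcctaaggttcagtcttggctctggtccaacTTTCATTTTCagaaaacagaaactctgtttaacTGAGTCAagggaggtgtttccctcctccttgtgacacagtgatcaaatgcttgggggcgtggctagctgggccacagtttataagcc
Il6, chr5:30012864-30013113, plus strand: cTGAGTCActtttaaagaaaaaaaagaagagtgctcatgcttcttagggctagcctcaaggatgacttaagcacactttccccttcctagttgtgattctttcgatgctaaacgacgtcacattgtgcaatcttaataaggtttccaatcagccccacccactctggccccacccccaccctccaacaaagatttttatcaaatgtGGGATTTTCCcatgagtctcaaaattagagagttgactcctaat
Nfkbia, chr12:55492648-55492897, minus strand: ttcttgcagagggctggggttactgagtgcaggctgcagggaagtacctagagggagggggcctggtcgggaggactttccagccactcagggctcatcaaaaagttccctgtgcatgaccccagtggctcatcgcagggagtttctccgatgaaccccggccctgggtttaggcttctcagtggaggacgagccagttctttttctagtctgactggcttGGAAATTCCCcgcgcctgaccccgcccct
Cebpa, chr7:35119043-35119292, plus strand: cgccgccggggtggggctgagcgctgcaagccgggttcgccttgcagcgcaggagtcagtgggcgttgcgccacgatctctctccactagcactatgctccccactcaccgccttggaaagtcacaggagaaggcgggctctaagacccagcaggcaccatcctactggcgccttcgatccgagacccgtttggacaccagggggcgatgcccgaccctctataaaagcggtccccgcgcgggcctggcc
Cxcl10 and Rsad2 each hold an interferon response match, which begins 213 and 120 bases before the start, and an AP-1 match, at 74 and 87 bases. Il6 holds a kappaB match at 44 bases and an AP-1 match at 249 bases, and Nfkbia a kappaB match at 29 bases. Cebpa, the gene of a myeloid transcription factor that fell, holds none of these letters in this window. Over windows of 250 bases before to 50 bases after the start, the interferon response motif was found for 4 of the 11 genes with a window among the 15 largest rises (36.4%), for 0 of the 11 with a window among the 15 largest falls, and for 3.91% of all 10485 tested genes with a window. The AP-1 motif was found for 5 of those 11 rising genes (45.5%), 0 of the 11 falling genes and 6.41% of all. The kappaB motif was found for 2 of the 11 rising genes (18.2%), 1 of the 11 falling genes (9.09%) and 2.02% of all. Over all genes called higher, the shares were 6.93% for the interferon response motif, 7.58% for AP-1 and 3.06% for kappaB, and over all genes called lower 2.32%, 5.35% and 1.58%. A match is a description of letters, and no binding was measured. Only exact matches are marked, so an unmarked stretch does not show that a site is absent.

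The NF-kB target cytokines were among the genes that rose most. Il6, which encodes the fever and acute phase cytokine interleukin 6, stood at 583, 497 and 768 CPM in LPS-treated samples and 0.364, 0.237 and 0.691 CPM in untreated samples. The untreated libraries all lay under 1 CPM, and the log2 fold change was 10.46 ± 0.81 (adjusted p = 5.55e-09). Tnf, the gene of tumour necrosis factor, reached 7401, 6164 and 6379 CPM with LPS, against 38.9, 26 and 13.7 CPM without (254-fold, log2 7.99 ± 0.57, adjusted p = 2.38e-09). Il1b, which encodes the precursor of interleukin 1 beta, reached 5019.5, 3696 and 7119.6 CPM in treated and 22.9, 10.4 and 16.7 CPM in untreated samples (317-fold, log2 8.31 ± 0.56). In all 3 genes the groups were far apart. Il12b, the p40 subunit shared by interleukins 12 and 23, stood at 2919, 2574 and 1727 CPM with LPS and 3.33, 1.42 and 1.33 CPM without (log2 10.21 ± 0.82, adjusted p = 8.57e-09).

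Nearly the whole list of secreted cytokines moved up. Of 23 genes listed, 21 were tested, 20 were called higher and 0 lower, with a median log2 fold change of 6.89, against 23.3% of all genes called higher. Besides those above, the largest named rises were Il27, a subunit of interleukin 27 that restrains and shapes T cell responses (747 ± 33.3 CPM with LPS, 0.797 ± 0.2 CPM untreated, SD, n = 3 each), and Il1a, the gene of interleukin 1 alpha (2864 ± 463 CPM with LPS and 3.82 ± 0.25 CPM without, log2 9.55 ± 0.71). Il27 overlaps Apobr and Il1a overlaps Gm14023, and whether the counting used strand is not given in the sources used here, so their reads may be shared. Tnfsf15, a TNF family ligand that costimulates T cells, averaged 484 ± 289 CPM with LPS and 0.568 ± 0.347 CPM without (log2 9.73 ± 1.53). Tgfb1, whose product restrains inflammation, was the member not called (341, 306 and 223 CPM with LPS and 233, 228 and 163 CPM without, adjusted p = 0.0927). With the replicate number as a block (replicate block, with which 34.1% of all genes were called higher and 36.1% lower) it was called (adjusted p = 4.7e-06), as it was without LPS-treated replicate 3 (adjusted p = 0.0403).

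Chemokines rose as well. Cxcl10, which draws activated T cells through CXCR3, reached 13772, 11008 and 15309 CPM in LPS-treated microglia and 18.4, 8.71 and 11.7 CPM in untreated microglia (log2 10.01 ± 0.76, adjusted p = 4.14e-09). Its relatives Cxcl9 and Cxcl11, ligands of the same receptor, averaged 798 ± 344 and 167 ± 62.8 CPM with LPS, against 0.809 ± 0.543 and 0.28 ± 0.142 CPM without it. Of 22 chemokine genes tested, 20 were called higher and 0 lower (median 7.24). Ccl7, a monocyte attractant, stood at 857, 826 and 759 CPM with LPS, against 0.987, 0.994 and 0.74 CPM untreated, and Ccl5, which draws T cells and monocytes, at 2237, 1786 and 2375 CPM with LPS and 5.72, 7.81 and 3.75 CPM without. In none of these genes did a treated library fall into the range of the untreated ones. Such a lack of overlap went with a call in 48.5% of all genes tested. One of the 2 members not called was Cxcl14, a chemokine of resting tissue (88.7, 43.9 and 49.9 CPM with LPS and 115, 67 and 85 CPM without, log2 -0.55 ± 0.31, adjusted p = 0.155). It was called lower with the replicate block (adjusted p = 2.49e-06) and without LPS-treated replicate 1 (adjusted p = 0.0248).

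The receptors for such signals rose more often than they fell. Of 15 chemokine and chemoattractant receptors, 7 rose and 3 fell, against 23.3% and 26.1% of all genes. With the replicate block 9 rose and 6 fell, against 34.1% and 36.1%. The share of falls was thus under or close to that of all genes. Ccrl2, an atypical receptor that presents chemerin without signalling, reached 1204, 1083 and 955 CPM with LPS and 11.6, 10.2 and 9.77 CPM untreated (log2 6.68 ± 0.39). The 2 groups of libraries did not overlap. Cxcr4, the receptor of CXCL12, fell to 1.24, 1.8 and 2.66 CPM in treated samples, against 124, 106 and 164 CPM in untreated ones (69.1-fold lower, log2 -6.11 ± 0.86, adjusted p = 9.09e-06). C3ar1, the receptor of complement C3a, did not pass the test (2321, 2079 and 2272 CPM with LPS and 1644, 1477 and 1480.3 CPM without, adjusted p = 0.0587). It did with the block (adjusted p = 5.53e-05) and, without a block, with DESeq2, limma, RLE scaling, a filter of 5 CPM or the compared groups alone (adjusted p between 0.00948 and 0.0457), whereas with library totals it was not called and its value turned to -0.26.

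**Figure D2:**
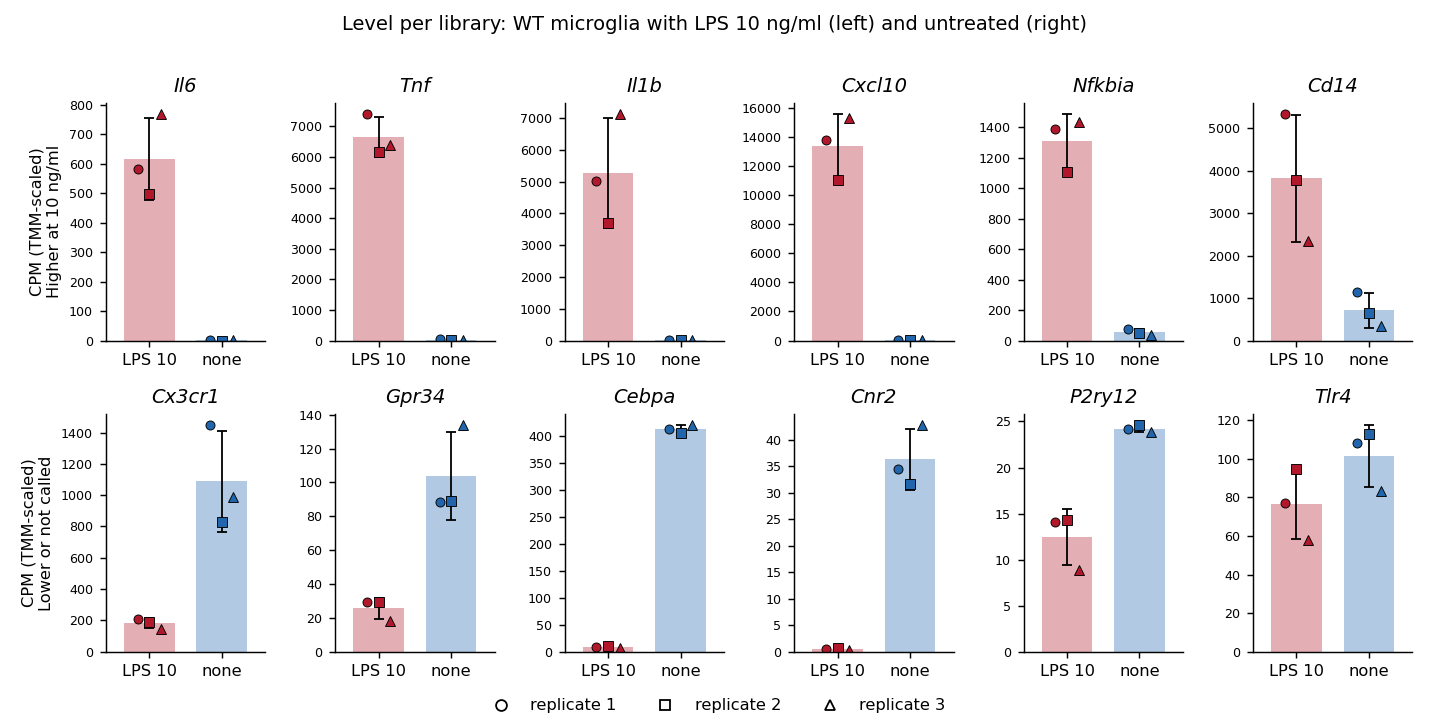
Levels in TMM-scaled CPM (linear axes from 0) of 12 genes in WT microglia, LPS-treated on the left and untreated on the right of each panel; points are libraries, with a symbol per replicate number, bars are means and error bars are SD (n = 3). Groups do not overlap in 11 of the 12 panels; for Tlr4 the treated libraries at 77.3, 94.5 and 58 CPM overlap the untreated ones at 108, 113 and 83.4 CPM.

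At the receptor itself the picture was uneven. Tlr4 did not pass the test: it stood at 77.3, 94.5 and 58 CPM in LPS-treated and 108, 113 and 83.4 CPM in untreated samples, with overlapping groups (log2 -0.40 ± 0.32, adjusted p = 0.333). Within each preparation the treated library was the lower one, and with the replicate block the adjusted p was 0.0258. Cd14, the co-receptor, rose to 5329, 3779 and 2349 CPM with LPS, against 1150.2, 639 and 338 CPM without (5.39-fold, log2 2.43 ± 0.49, adjusted p = 0.000375). Replicate 1 was the highest and replicate 3 the lowest in both groups, and the groups did not overlap. Among 24 genes of the receptor complex, adaptors and kinases, 16 rose and 2 fell (median 0.83), and with the replicate block 16 and 4. With library totals 7 rose and 9 fell, against 1444 and 7408 of all 13294 genes. The adaptor gene Myd88, which overlaps Acaa1a, reached 431 ± 72.1 CPM with LPS and 52.1 ± 3.08 CPM without (log2 3.05 ± 0.20). Ikbke, a kinase of the TRIF arm, and Irak2, a kinase of the MyD88 arm, rose by 3.61 and 2.29 on the log2 scale.

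Other sensors of microbes rose more often than they fell. Of 24 pattern recognition and inflammasome genes, 14 were called higher and 5 lower. Clec4e (Mincle), a lectin that binds mycobacterial glycolipid, reached 2236, 1808 and 1730.0 CPM with LPS and 29, 25 and 8.78 CPM without (log2 6.52 ± 0.75). Nod2, the cytosolic receptor of muramyl dipeptide, averaged 172 ± 8.81 CPM in treated and 4.07 ± 0.749 CPM in untreated samples. Clec7a (Dectin-1), a receptor of fungal beta-glucan, was not called (523 ± 159 CPM with LPS and 620.1 ± 156 CPM without, adjusted p = 0.604), but was with the replicate block (adjusted p = 0.00498). Nor was Tlr7, a sensor of single-stranded RNA (527 ± 90.1 CPM with LPS and 373 ± 29.1 CPM without, adjusted p = 0.0514, with the block 0.000477, and 0.0261 without LPS-treated replicate 3).

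The brakes on NF-kB rose together with its targets. Nfkbia, the gene of the inhibitor IkB alpha and itself an NF-kB target, reached 1388, 1107 and 1433 CPM in LPS-treated samples and 75.9, 51.7 and 37.8 CPM in untreated samples (23.7-fold, log2 4.57 ± 0.26, adjusted p = 2.08e-10). Of 24 NF-kB subunit and feedback genes, 23 rose and 0 fell (median 3.87). The exception was the deubiquitinase gene Otud7b, at 45.7 ± 4.68 CPM with LPS and 49.8 ± 1.07 CPM without (adjusted p = 0.398). Socs3 and Socs1, which shut off JAK and STAT signalling, averaged 2373 ± 280.1 and 289 ± 58.6 CPM with LPS, against 6.38 ± 2.64 and 0.668 ± 0.288 CPM untreated. Traf1, an adaptor of TNF receptors, rose by 8.90 and the kinase gene Pim1 by 6.72 on the log2 scale.

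Immediate early factors, which in many cells peak within the first hour, rose more often than they fell. Of 25 genes, 12 rose and 4 fell, against 23.3% and 26.1% of all genes (median 0.70, and -0.11 with library totals). With the replicate block 13 rose and 8 fell, against 34.1% and 36.1%. Maff, a small leucine zipper factor, rose to 107 ± 26.8 CPM with LPS, against 4.26 ± 0.968 CPM without, and the nuclear receptor gene Nr4a3 rose by 4.42, the survival gene Ier3 by 3.68 and Klf7 by 3.78 on the log2 scale. Jun, a part of AP-1, stood at 49.1, 53.9 and 100.2 CPM with LPS and 66.6, 66.8 and 78 CPM without, with overlapping groups (log2 -0.06 ± 0.31, adjusted p = 0.922). Among 15 MAP kinase phosphatases and Sprouty inhibitors, 6 rose and 3 fell, against 23.3% and 26.1% of all genes. Dusp2, a nuclear phosphatase of ERK and p38, reached 415, 300.5 and 411 CPM with LPS and 1.56, 0.852 and 0.987 CPM without (log2 8.37 ± 0.56). Dusp5 rose by 3.09, Dusp14 by 2.85 and Dusp1, which overlaps Ergic1, by 2.90 on the log2 scale.

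Factors that break down cytokine mRNA rose too, with exceptions. Zfp36 (tristetraprolin), which binds AU-rich elements in Tnf mRNA, reached 1068, 900.4 and 1313 CPM with LPS and 134, 88.1 and 107 CPM untreated (log2 3.32 ± 0.26). Zc3h12a (Regnase-1), an RNase of Il6 mRNA, and its relative Zc3h12c rose by 3.93 and 3.89. Zfp36l2, a paralogue of Zfp36, went the other way, with 11.1, 13.4 and 5.33 CPM in treated and 277, 205 and 191 CPM in untreated samples (22.6-fold lower, log2 -4.49 ± 0.54, adjusted p = 1.24e-06). Over 17 mRNA decay genes, 10 rose and 2 fell, against 6 and 5 with library totals.

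Every interferon-stimulated gene tested was called higher with TMM scaling. Of 36 tested, 36 rose with TMM, RLE and upper quartile scaling and 35 with library totals, and the median log2 fold change was 5.97. Rsad2 (viperin), an antiviral enzyme, reached 17612, 18054 and 17554 CPM with LPS and 25.2, 25.6 and 22.1 CPM without (log2 9.51 ± 0.64, adjusted p = 1.12e-09). Ifit1, which binds foreign RNA caps, stood at 5857, 4938 and 6098 CPM in treated and 10.8, 9.37 and 12.9 CPM in untreated samples. In both genes the groups were far apart. Gbp5, a guanylate-binding protein that acts on bacterial vacuoles, averaged 3388 ± 717 CPM with LPS and 3.86 ± 1.5 CPM without, and Oasl1, an antiviral relative of the oligoadenylate synthetases, 761 ± 78.9 CPM with LPS and 1 ± 0.318 CPM without (SD, n = 3 each). Their regulators had a lower median: of 20 interferon receptor, JAK, STAT and IRF genes 15 rose and 0 fell (median 1.59), against 13 and 4 with library totals. Irf1 reached 2621 ± 108 CPM with LPS and 39.2 ± 3.29 CPM without, Irf7, which overlaps Phrf1, 825 ± 182 CPM with LPS and 18.5 ± 7.08 CPM without, and the kinase gene Jak2 1170.5 ± 117 CPM with LPS and 51.7 ± 1.69 CPM without. Ifngr2, a chain of the interferon gamma receptor, was not called (225 ± 32.5 CPM with LPS and 189 ± 19.4 CPM without, adjusted p = 0.117, with the block 0.00296, and 0.0294 without LPS-treated replicate 2).

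Several genes were close to silent without LPS. Of the genes called higher, 17 with at least 5 CPM in treated samples had 3 or fewer counts in the 3 untreated libraries together, and 0 genes had the reverse. For these the ratio of pooled, scaled counts is given with an interval that covers counting error only. Ifnb1, which encodes interferon beta, had 6520 counts in the treated and 3 in the untreated libraries, a ratio of 3624-fold (95% interval 1239.7 to 17580.0), and its level was 214, 185 and 133 CPM with LPS. Il23a, the p19 subunit that pairs with the Il12b product, had 469 and 0 counts and was at least 261-fold higher, against a floor of 3 counts over the untreated group. Pla1a, a phospholipase gene, had 731 and 0 counts and was at least 406-fold higher against the same floor. Serping1, the inhibitor of complement C1, had 413 and 1 counts (689-fold (95% interval 123 to 27269.7)), Serpina3f, a serine protease inhibitor, 946 and 2 counts (789-fold (95% interval 218 to 6523)), and Lad1 1446 and 3 counts (804-fold (95% interval 275 to 3902)). Nipal1 had 507 and 3 counts, and Olfr56, which overlaps the interferon-induced gene Ifi47, 450 and 1 counts.

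Among the other largest rises were genes of vessel tone, histamine and T cell contact. Edn1, the gene of the vasoconstrictor endothelin 1, stood at 286, 221 and 164 CPM with LPS and 0.416, 0.142 and 0.148 CPM without (log2 9.87 ± 1.01). Hdc, the enzyme that makes histamine, averaged 69.2 ± 25.8 CPM with LPS and 0.0666 ± 0.0751 CPM without, and Cd69, an early activation antigen of leukocytes, 2599 ± 729 CPM with LPS and 3.95 ± 0.814 CPM without. Adora2a, an adenosine receptor, reached 125, 95.1 and 118 CPM with LPS and 0.26, 0.0473 and 0.197 CPM without (log2 9.35 ± 0.80, adjusted p = 2e-08).

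Enzymes that make nitric oxide, itaconate and prostaglandin E2 rose strongly. Nos2, the inducible nitric oxide synthase, reached 275, 194 and 548 CPM with LPS and 0.468, 0.473 and 0.592 CPM untreated (log2 9.35 ± 0.71, adjusted p = 4.41e-09). Irg1 (Acod1), which makes itaconate from a citrate cycle intermediate, reached 12286, 9337 and 12378 CPM with LPS and 33.7, 20.4 and 14 CPM without. Ptgs2 (cyclooxygenase 2) and Ptges (prostaglandin E synthase), which act in sequence, rose by 9.30 and 7.72 on the log2 scale. Over all 20 genes of this list 8 rose and 1 fell, and the median was 0.02 (-0.76 with library totals). Hpgds and Tbxas1, which make prostaglandin D2 and thromboxane, were not called (233 ± 16.5 CPM with LPS and 274 ± 32.3 CPM without; 142 ± 42 CPM with LPS and 174 ± 31.7 CPM without). With the replicate block Tbxas1 was called lower (adjusted p = 0.000748).

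Of 20 glycolytic genes 5 rose and 1 fell, a share of rises close to the 23.3% of all genes called higher. In the fit with the replicate block 10 rose and 3 fell, and the median of 0.32 turned to -0.48 with library totals. Hk2, the hexokinase that traps glucose in the cell, reached 659.9, 630.2 and 543 CPM with LPS and 89.6, 82.4 and 67.7 CPM without (7.65-fold, log2 2.93 ± 0.26). The glucose transporter gene Slc2a1 rose by 2.25, Pfkfb3, which makes an activator of phosphofructokinase, by 2.50, and the phosphofructokinase gene Pfkp, which overlaps Pitrm1, by 2.21. Pfkfb3 was not called in the compared groups alone with the replicate block (adjusted p = 0.0528). Aldoa and Pkm2, which act further down, were not called (log2 0.40 ± 0.18 and 0.21 ± 0.43), and both were with the replicate block (adjusted p = 6.99e-06 and 0.00715). Aldoa also passed without LPS-treated replicate 3 or untreated replicate 1 (adjusted p = 0.0442 and 0.0456). Of 23 citrate cycle and respiratory chain genes, 10 were higher and 1 lower with a median of 0.30, but with library totals 0 were higher and 17 lower (median -0.50), so no direction holds across scalings. Cs (citrate synthase) stood at 265 ± 45.4 CPM with LPS and 161 ± 12.2 CPM without, and Idh1, the cytosolic isocitrate dehydrogenase, at 113 ± 15.9 CPM with LPS and 199 ± 29.9 CPM without.

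Of 24 sterol and lipid genes, 3 rose and 8 fell, a share of falls not far from the 26.1% of all genes called lower. In the fit with the replicate block 4 rose and 16 fell, against 34.1% and 36.1% of all genes. With library totals 1 rose and 17 fell, against 1444 and 7408 of all 13294 genes. Dhcr7, the last enzyme of cholesterol synthesis, fell to 18.3, 17.9 and 12.8 CPM with LPS, against 54.1, 45.4 and 48.1 CPM untreated (log2 -1.59 ± 0.17), and the desaturase gene Scd2 fell by 1.44 on the log2 scale. Ch25h, which turns cholesterol into the antiviral 25-hydroxycholesterol, rose to 3363, 2964 and 2455 CPM with LPS, against 187, 149 and 42.3 CPM without (log2 4.54 ± 0.87). In the list of oxidative stress, NADPH oxidase and iron genes 15 of 28 rose and 2 fell (median 0.60, -0.20 with library totals). Sod2, the mitochondrial superoxide dismutase, reached 1011 ± 202 CPM with LPS and 59.4 ± 19 CPM without, and Slc7a11, the cystine transporter, 605 ± 166 CPM with LPS and 14.1 ± 13.5 CPM without. Txnrd1 (thioredoxin reductase) rose by 2.73, whereas Hmox1 (heme oxygenase) was not called (497 ± 139 CPM with LPS and 528 ± 76.7 CPM without, adjusted p = 0.847).

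Genes for showing antigen to T cells rose. Of 18 MHC class I presentation and immunoproteasome genes, 16 were called higher and 0 lower (median 1.89). Tap1, a subunit of the peptide transporter that overlaps Psmb9, reached 844 ± 76.6 CPM with LPS and 48.7 ± 5.38 CPM without. Tapbp, which loads peptide, rose by 2.68, and Tap2, the other subunit of the transporter, by 2.51. Cd40, the receptor of the T cell signal CD40L, reached 1339, 1012 and 1225 CPM in treated and 4.68, 3.69 and 1.83 CPM in untreated samples (log2 8.45 ± 0.64). The adhesion genes Icam1 and Vcam1 averaged 5252 ± 799 and 199 ± 55.8 CPM with LPS, against 64.8 ± 16.6 and 0.401 ± 0.168 CPM without. Of 20 MHC class II, costimulatory and checkpoint genes, 13 rose and 2 fell.

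Receptors of phagocytosis rose more often than they fell. 11 of 26 rose and 4 fell, against 23.3% and 26.1% of all genes (median 0.33, -0.47 with library totals). With the replicate block 14 rose and 9 fell, against 34.1% and 36.1%. The share of falls did not exceed that of all genes in either of these fits. Cd300lb, a DAP12-coupled receptor of myeloid cells, fell to 1.98, 3.67 and 2.94 CPM with LPS, against 226, 190.4 and 244 CPM untreated (77-fold lower, log2 -6.26 ± 0.39, adjusted p = 5.64e-10). Timd4, a receptor of phosphatidylserine on dying cells, rose to 20.5, 32.9 and 20.8 CPM, against 0.727, 1.42 and 0.296 CPM without LPS. Stab1, a scavenger receptor, was not called (2070.3 ± 347 CPM with LPS and 2542 ± 434 CPM without, adjusted p = 0.426), but was with the replicate block (adjusted p = 0.0026). Lysosomal genes mostly missed the threshold: 3 of 27 rose, 6 fell and 18 were not called. Both shares were under the 23.3% and 26.1% of all genes called higher and lower. With the replicate block 8 rose and 10 fell, against 34.1% and 36.1% of all genes. With library totals 1 rose and 20 fell, against 1444 and 7408 of all 13294 genes. Tfeb, a master regulator of lysosomal genes, fell to 2.31, 2.1 and 1.19 CPM with LPS, against 32.4, 26.2 and 32 CPM untreated (16.2-fold lower, adjusted p = 2.95e-08). The protease gene Ctsd, at 13058, 17385 and 16857 CPM with LPS and 15935, 20418 and 21050.4 CPM without, was not called (adjusted p = 0.382, with the block 0.000628).

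Complement and coagulation genes rose more often than they fell. Of 20, 9 rose and 2 fell, against 23.3% and 26.1% of all genes. With the replicate block 15 rose and 3 fell, against 34.1% and 36.1%. F3 (tissue factor), which starts coagulation, rose to 64.9, 56.9 and 37.6 CPM with LPS, against 0.468, 0.71 and 0.197 CPM without (log2 6.83 ± 1.01). Thbd (thrombomodulin), which restrains it, fell to 0.33, 0.15 and 0.275 CPM, against 8.37, 6.11 and 16.8 CPM untreated (41.4-fold lower, log2 -5.34 ± 0.62, adjusted p = 7.91e-07). Serpinb2, an inhibitor of plasminogen activation, averaged 23.1 ± 15.6 CPM with LPS and 0.149 ± 0.00696 CPM without. The groups did not overlap in any of these 3 genes, as in 48.5% of all genes tested, which were also called. C1qa and C1qc, chains of complement C1q, were not called (1373 ± 235 CPM with LPS and 1076 ± 222 CPM without; 1803 ± 196 CPM with LPS and 1532 ± 159 CPM without), but were with the replicate block (adjusted p = 0.000534 and 0.00672), and C1qa was without LPS-treated replicate 3 (adjusted p = 0.0281).

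Matrix and motility genes leaned up, 13 of 27 higher and 4 lower, with the replicate block 20 and 4. Mmp13, a collagenase, reached 4128, 4296 and 6632 CPM with LPS and 14.7, 15.4 and 15.4 CPM without (log2 8.37 ± 0.54). Marcksl1, an actin-linked substrate of protein kinase C, averaged 2136 ± 812 CPM with LPS and 72.6 ± 42 CPM without. Fn1 (fibronectin) and Spp1 (osteopontin) were higher in each treated library than in any untreated one, yet not called (2812, 1759 and 1170.2 CPM with LPS and 1009, 780.4 and 337 CPM without; 15568, 19583 and 14982 CPM with LPS and 10168, 14018 and 10085 CPM without). Both were called with the replicate block (adjusted p = 1.68e-08 and 1.68e-06).

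Survival and death genes rose more often than they fell, 18 of 29 higher and 4 lower. Fas, a death receptor, Gadd45b, a stress gene, and Mlkl, the effector of necroptosis, rose by 5.64, 6.31 and 4.82 on the log2 scale. Bmf, a BH3-only protein that promotes apoptosis, fell to 0.908, 0.823 and 0.735 CPM with LPS, against 50.1, 38 and 67.6 CPM untreated (63.2-fold lower, log2 -5.97 ± 0.61). The near-identical copies Bcl2a1a and Bcl2a1d, which encode survival proteins, can share reads and were not called (1405, 64.1 and 58.1 CPM with LPS and 51.4, 0.426 and 0.148 CPM without; 2082, 157 and 221 CPM with LPS and 85.7, 4.26 and 4.49 CPM without), although their groups did not overlap. With the replicate block both were (adjusted p = 5.45e-07 and 3.51e-08), as they were without untreated replicate 1 (adjusted p = 0.0476 and 0.0316).

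Of 29 cell cycle genes, 2 rose and 5 fell (median -0.85), in both directions a smaller share than the 23.3% and 26.1% of all genes called higher and lower. The replicate block gave 3 that rose and 23 that fell, against 34.1% and 36.1% of all genes. With library totals the counts were 2 and 15, against 1444 and 7408 of all 13294 genes. The 2 that rose were Cdkn1a (p21), an inhibitor of cyclin-dependent kinases, at 5806, 3548 and 4474 CPM with LPS and 294, 262 and 245 CPM without, and Ccnd2 (cyclin D2), at 270.2, 205 and 244 CPM with LPS and 3.53, 7.71 and 3.4 CPM without. Bub1b, of the spindle checkpoint, averaged 12.1 ± 2.12 CPM with LPS and 55.9 ± 12.4 CPM without (log2 -2.21 ± 0.87, adjusted p = 0.0424), and its call was lost when any 1 of the 6 libraries was left out (adjusted p between 0.0524 and 0.116). Mki67, a marker of cycling cells, overlapped between the groups (434, 333 and 339.8 CPM with LPS and 347, 232 and 349.5 CPM without, adjusted p = 0.875).

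Genes of protein synthesis showed how far the block matters. Of 23 cytosolic ribosomal protein genes, 2 were called higher and 0 lower, and with the replicate block 20 and 0, while the median of 0.43 turned to -0.38 with library totals. Their summed level was 8900.4, 3482 and 3672 CPM in LPS-treated replicates 1 to 3, against 6464, 2750.4 and 2913 CPM in the untreated replicates, so that replicate 1 was the highest in both groups. Of 25 ribosome biogenesis genes 6 rose and 1 fell (median 0.14, -0.66 with library totals), with the replicate block 11 and 5. Wdr43 and Rrs1, nucleolar factors, rose by 2.18 and 2.06. Of 24 unfolded protein and heat shock genes 5 rose and 4 fell (median 0.16), with the block 12 and 7, and with library totals 2 and 12 (median -0.63). Without the block, rises in these last 2 lists were close to the 23.3% of all genes called higher. Falls were under the 26.1% of all genes called lower. Hspa5 (BiP), the main chaperone of the endoplasmic reticulum, reached 1379 ± 37.1 CPM with LPS and 359 ± 26.3 CPM without, whereas Eif2ak3 (PERK), a sensor of unfolded protein, fell to 6.61 ± 1.06 CPM, against 38.6 ± 0.252 CPM untreated.

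Circadian clock genes were the list with the lowest median. Of 13 tested, 1 rose and 8 fell (median -1.83), against 23.3% and 26.1% of all genes. With library totals 11 fell, where 7408 of all 13294 genes fell. Per1, a repressor of the clock, stood at 3.96, 5.54 and 3.49 CPM with LPS and 32.3, 34.5 and 28.7 CPM without (log2 -2.87 ± 0.20, adjusted p = 1.63e-09). Per3 and the output factor Tef averaged 2.15 ± 0.768 and 9.6 ± 3.25 CPM with LPS, against 13.6 ± 1.1 and 53.5 ± 7.53 CPM untreated. The activators Arntl (BMAL1) and Clock were not called (12.5 ± 1.58 CPM with LPS and 13.3 ± 1.29 CPM without; 45.9 ± 4.12 CPM with LPS and 41.8 ± 6.3 CPM without).

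Regulators of small GTPases and G proteins rose more often than not, 16 of 25 against 5 that fell. Rnd1, a small GTPase that loosens adhesion, reached 381 ± 146 CPM with LPS and 1.11 ± 0.439 CPM without, and Rgs16 and Gem rose by 6.63 and 6.15. Among 25 chromatin genes 10 rose and 8 fell, against 23.3% and 26.1% of all genes, and with library totals 7 and 13. Kdm6b (JMJD3), a demethylase of H3K27, rose by 4.06 and Arid5a, which also steadies Il6 mRNA, by 5.16 on the log2 scale. Of 23 growth factor, TGF-beta, Notch and Wnt genes 7 rose and 7 fell, shares not far above those of all genes, and with library totals 5 and 12. The receptor gene Notch1 averaged 459 ± 90.3 CPM with LPS and 41.2 ± 3.29 CPM without, and its target Hes1 0.114 ± 0.0607 CPM with LPS and 1.89 ± 0.468 CPM without (adjusted p = 0.000156).

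**Figure D3:**
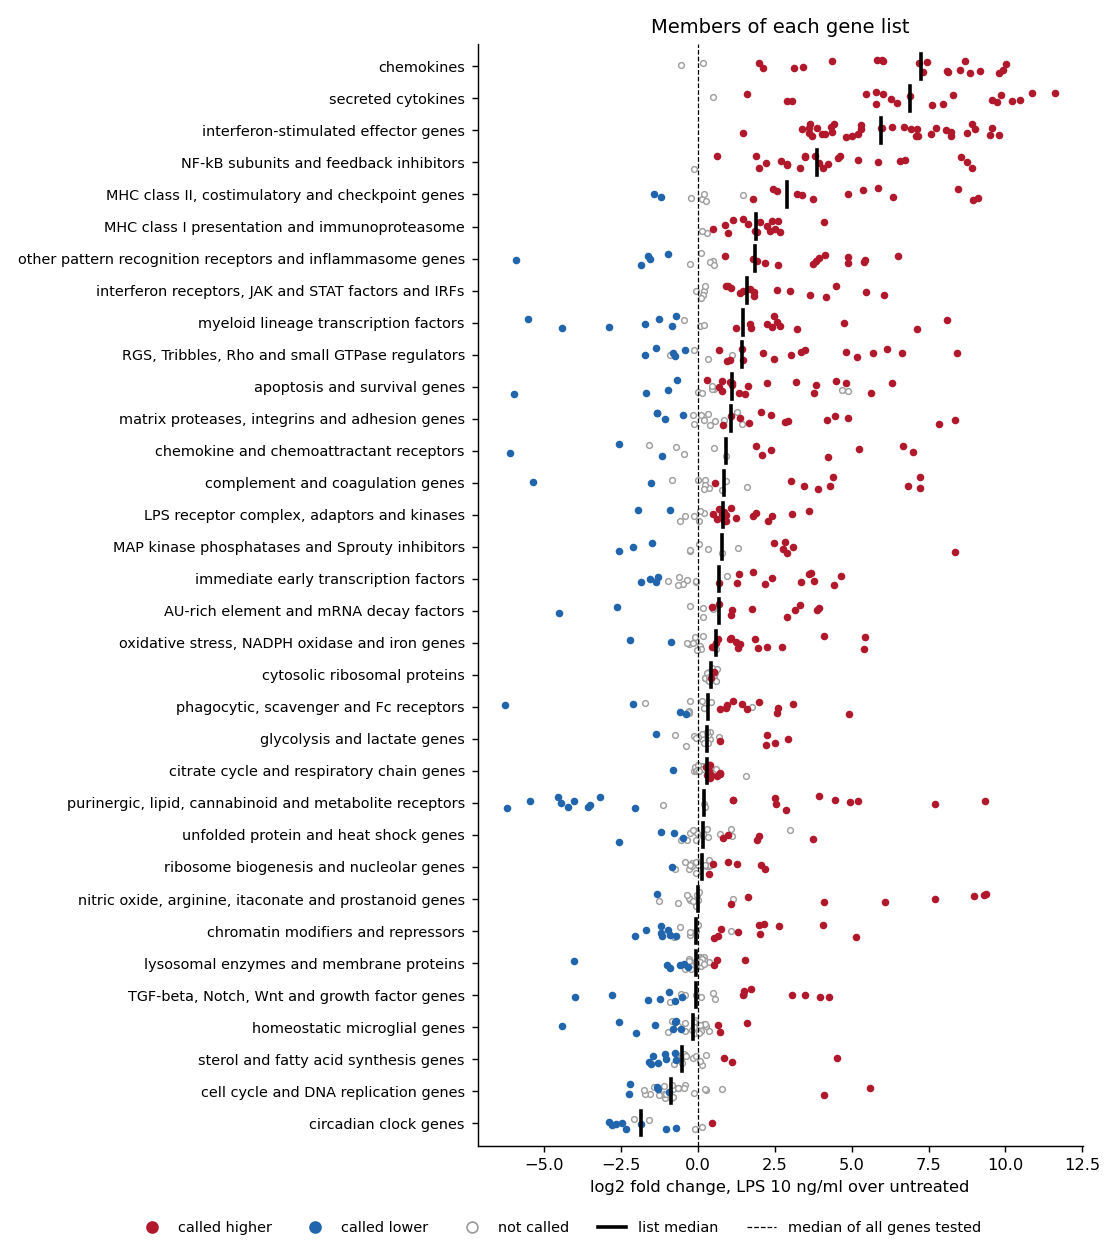
Each row is a gene list and each point a tested member, placed by its log2 fold change of LPS-treated over untreated WT microglia (red called higher, blue called lower, open not called); black bars are list medians and the dashed line is the median of all 13294 genes. Medians run from 7.24 for chemokines to -1.83 for circadian clock genes, and many lists hold members on both sides.

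The genes that define microglia at rest did not all move down with TMM scaling. Of 28 homeostatic genes 3 rose, 8 fell and 17 were not called (median -0.17). The share of falls was close to the 26.1% of all genes called lower. With the replicate block 6 rose and 13 fell, against 34.1% and 36.1% of all genes. With library totals 0 rose and 22 fell, against 1444 and 7408 of all 13294 genes. Cx3cr1, the receptor of the neuronal chemokine fractalkine, fell to 212, 192 and 148 CPM in LPS-treated samples, against 1445, 827 and 990.0 CPM in untreated samples (5.91-fold lower, log2 -2.56 ± 0.22, adjusted p = 1.68e-08). Gpr34, a lysophospholipid receptor, averaged 25.7 ± 6.23 CPM with LPS and 104 ± 26 CPM without. P2ry12, the ADP receptor that steers microglial processes, stood at 14.1, 14.3 and 8.91 CPM with LPS and 24.2, 24.6 and 23.8 CPM without. Its groups did not overlap, but the adjusted p was 0.0678 (log2 -0.96 ± 0.42), and 6.96e-06 with the replicate block. It overlaps Med12l. Csf1r, the receptor that microglia need to survive, stood at 2529, 1924 and 1739.6 CPM with LPS and 3179, 2585 and 2555 CPM without (adjusted p = 0.0854, with the block 9.2e-06, and 0.0304 without LPS-treated replicate 1). Sall1, a microglial identity factor, rose to 51.1 ± 27.5 CPM, against 16.9 ± 6.64 CPM untreated (adjusted p = 0.0144). That call was lost without LPS-treated replicate 3, untreated replicate 1 or untreated replicate 2 (adjusted p = 0.106, 0.062 and 0.0549).

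Transcription factors of the myeloid lineage were split. 12 of 22 rose and 7 fell, against 23.3% and 26.1% of all genes. Cebpa, which directs myeloid differentiation, fell to 9.5, 10.6 and 7.07 CPM with LPS, against 413, 407 and 420.4 CPM without (45.7-fold lower, log2 -5.51 ± 0.40, adjusted p = 2.84e-09), with little spread in either group. Tfec, a relative of MITF, averaged 246 ± 61.7 CPM with LPS and 9.04 ± 1.91 CPM without, and Batf2, which overlaps Arl2, 93.1 ± 45.8 CPM with LPS and 0.658 ± 0.0457 CPM without. Lyl1, a factor of blood cell development that overlaps Nfix, fell to 1.73, 2.17 and 1.47 CPM, against 65.5, 60.3 and 62.8 CPM untreated. Runx1, a factor of blood cell identity, was not called (67.1 ± 12.4 CPM with LPS and 92.3 ± 9.46 CPM without, adjusted p = 0.14), but was with the replicate block (adjusted p = 0.00373).

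The receptors of purines, lipids, cannabinoids and metabolites went both ways: 11 of 24 rose and 10 fell, against 23.3% and 26.1% of all genes. Cnr2, the cannabinoid receptor CB2, fell to 0.495, 0.673 and 0.275 CPM with LPS, against 34.6, 31.7 and 42.7 CPM without (75.4-fold lower, log2 -6.20 ± 0.54, adjusted p = 2.48e-08). Lpar5, a receptor of lysophosphatidic acid, fell to 0.33, 0.524 and 0.184 CPM, against 19, 13.8 and 14.3 CPM untreated (45.4-fold lower). In both, every treated library was under 1 CPM. Adora2a rose as given above, and Gpr132, a receptor linked to oxidised lipids, averaged 22.1 ± 8.34 CPM with LPS and 0.0984 ± 0.0466 CPM without.

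The largest falls also took in genes of growth control and lesser known genes. Zfp395, a zinc finger gene, fell to 0.661, 1.12 and 0.551 CPM with LPS, against 65.8, 56.4 and 64 CPM untreated (79.8-fold lower, log2 -6.29 ± 0.39). Sesn1 (sestrin 1), a p53 target that restrains mTORC1, fell to 4.38, 5.91 and 5.6 CPM, against 227, 172 and 229 CPM untreated (39.6-fold lower). Lhfpl2 averaged 13.4 ± 7.23 CPM with LPS and 467 ± 30.5 CPM without, Arrdc3, an arrestin domain gene, 1.96 ± 0.877 CPM with LPS and 61.8 ± 25.4 CPM without, and Rtn4rl1, a relative of the Nogo receptor, 1.57 ± 0.787 CPM with LPS and 52.2 ± 5.53 CPM without.

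Marker genes of other cell types moved in a few cases. Of 10 endothelial, pericyte and fibroblast markers, 4 passed the filter and 3 of these were called higher, Pdgfrb with 593 pooled counts with LPS and 14 without, Kdr with 574 and 354, and Cdh5 with 73 and 31. The endothelial gene Pecam1 went the other way, with 19 pooled counts with LPS and 86 without, and was not called. With the replicate block, and with upper quartile scaling, 1 of the 4 was called lower. The summed level of the 4 was 29.1, 23.7 and 54.2 CPM with LPS, against 4.47, 8.85 and 10.5 CPM without. The defining pericyte gene Rgs5 had 0 counts in all 6 libraries, the endothelial gene Cldn5 had 1 pooled count with LPS and 0 without, and the fibroblast gene Col1a1 had 8 and 5. Of the 8 astrocyte markers Gja1 was called higher (108 pooled counts with LPS and 7 without), of the 8 neuron markers 0 were called either way, and of the 12 oligodendrocyte lineage markers Cnp, which overlaps Dnajc7, was called higher and Cspg4 lower (log2 1.14 ± 0.22 and -1.31 ± 0.43). Kdr lost its call without LPS-treated replicate 3 or untreated replicate 1 (adjusted p = 0.161 and 0.129), and Cspg4 without LPS-treated replicates 1 or 2 or untreated replicate 3 (adjusted p between 0.0547 and 0.0703). The part of other cells in the gene groups above was not tested.

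How the response depended on dose was read from the 2 LPS groups themselves, since both share the untreated libraries. At 10 ng/ml, 4285 genes (32.2%) differed from 0.1 ng/ml, 1968 (14.8%) higher and 2317 (17.4%) lower. With the replicate block 3704 (27.9%) were higher and 3872 (29.1%) lower. The order of the levels followed the dose in the cytokine genes: Il6 averaged 0.43 ± 0.234 CPM without LPS, 22.7 ± 16.9 CPM at 0.1 ng/ml and 616 ± 139 CPM at 10 ng/ml (10 minus 0.1 ng/ml, log2 4.77 ± 0.60, adjusted p = 1.14e-05). Tnf averaged 26.2 ± 12.6, 1329 ± 845 and 6648 ± 661 CPM in that order (log2 2.32 ± 0.44), and Ifnb1 0.0502 ± 0.0494, 5.44 ± 3.83 and 178 ± 41.1 CPM (log2 5.03 ± 0.67, adjusted p = 1.99e-05). At 0.1 ng/ml replicate 3 was the lowest library for Il6 at 38.9, 23.9 and 5.18 CPM in replicates 1 to 3, for Tnf at 2117, 1432 and 438 CPM and for Ifnb1 at 9.58, 4.72 and 2.01 CPM. Without that library 2929 genes were called between the doses. Between 10 and 0.1 ng/ml, 19 of 21 cytokines, 21 of 24 NF-kB feedback genes and 26 of 36 interferon-stimulated genes were called higher and 0 lower, and 8 of 13 clock genes were called lower.

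Genes that fell differed in how much of the fall was present at the low dose. Cx3cr1 stood at 1445, 827 and 990.0 CPM without LPS, 918, 591 and 1003 CPM at 0.1 ng/ml and 212, 192 and 148 CPM at 10 ng/ml (10 minus 0.1 ng/ml, log2 -2.19 ± 0.21, adjusted p = 9.8e-07), so the low dose overlapped the untreated libraries. Bmf stood at 50.1, 38 and 67.6, 6.62, 5.57 and 28.4 and 0.908, 0.823 and 0.735 CPM in the same order, with no overlap between any 2 groups. Cd300lb averaged 220.3 ± 27.5, 76.1 ± 42.6 and 2.86 ± 0.845 CPM (log2 -4.73 ± 0.37), and Zfp395 62.1 ± 5, 15.3 ± 9.1 and 0.778 ± 0.303 CPM (log2 -4.27 ± 0.37). Cd14 averaged 709 ± 411, 2093 ± 1098 and 3819 ± 1490.4 CPM, and its 2 doses did not differ at the threshold (log2 0.87 ± 0.47, adjusted p = 0.179), but did with the replicate block (adjusted p = 6.11e-06).

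**Figure D4:**
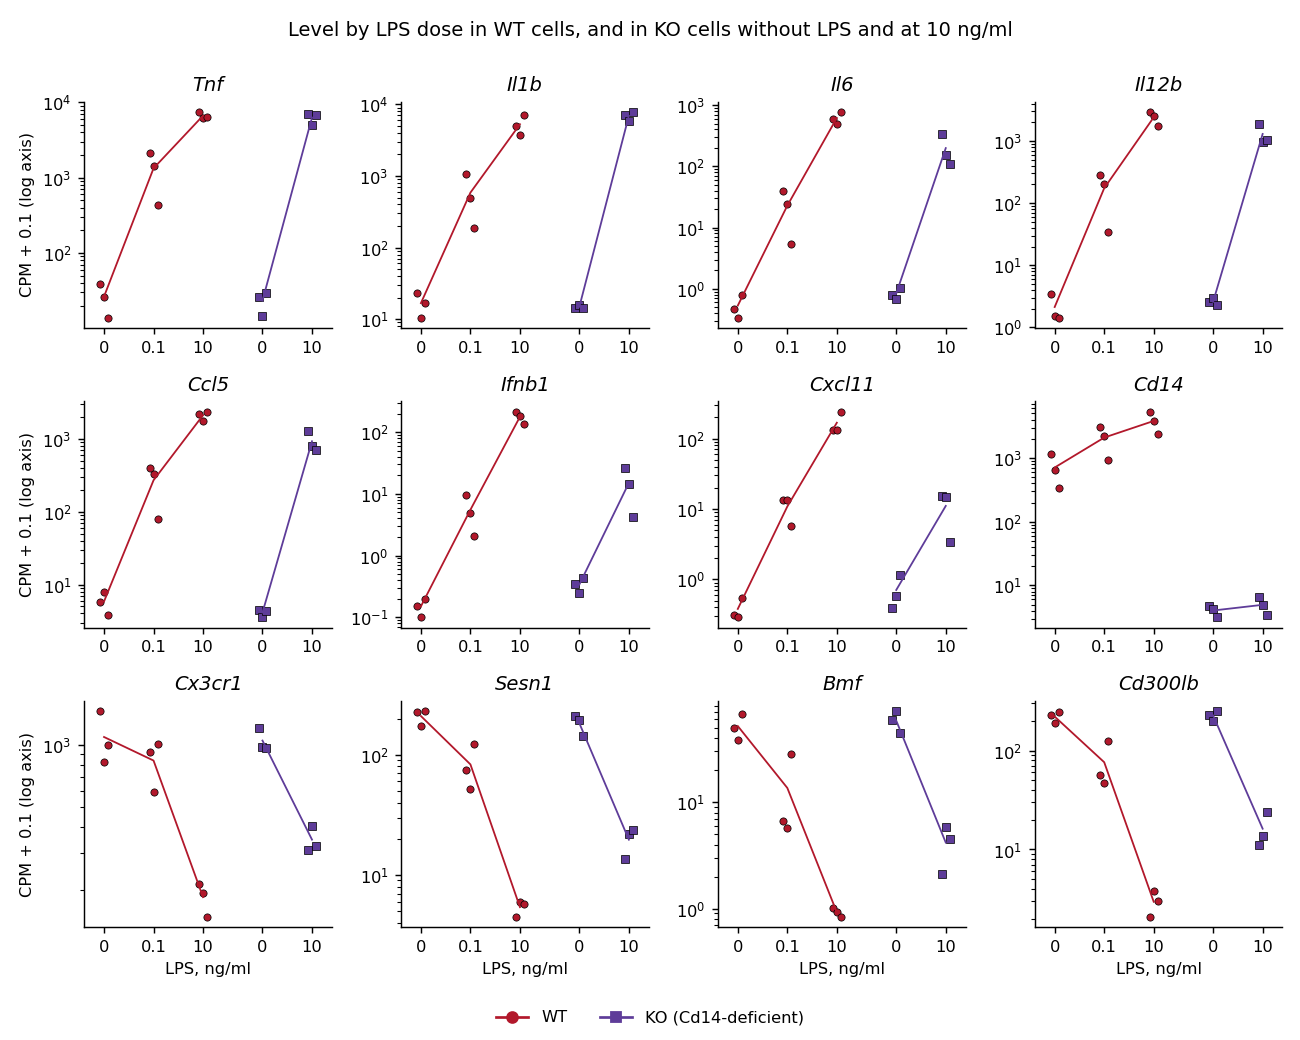
Levels as CPM plus 0.1 on log axes of 12 genes by LPS dose in ng/ml, with WT libraries as red circles at 0, 0.1 and 10 and KO libraries as purple squares at 0 and 10; lines join the group means. In WT cells Il6 averaged 0.43 ± 0.234, 22.7 ± 16.9 and 616 ± 139 CPM along the doses; the KO libraries of Cd14 lie at 6.37, 4.84 and 3.32 CPM with 10 ng/ml and at 4.58, 4.14 and 3.05 CPM without LPS, and Ifnb1 and Cxcl11 reached lower levels at 10 ng/ml in KO than in WT cells.

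The response without CD14 was set against that of WT cells by an interaction term. The targeted gene Cd14 had 6.37, 4.84 and 3.32 CPM in KO microglia with LPS and 4.58, 4.14 and 3.05 CPM in untreated KO microglia (KO replicates 1 to 3), far under the levels of all 6 WT libraries given above. The response to 10 ng/ml differed between WT and KO in 702 genes (5.28%): it was more positive in WT for 441 (3.32%) and more negative for 261 (1.96%). With the replicate block 1380 (10.4%) and 1507 (11.3%) genes were called, and without KO replicate 3 with LPS or WT untreated replicate 1 the total was 428 and 467. Some of the strongest WT responses did not differ at the threshold: Tnf reached 7401, 6164 and 6379 CPM in WT and 6929, 5036 and 6862 CPM in KO cells with LPS (interaction log2 -0.10 ± 0.60, adjusted p = 1), Il1b 5019.5, 3696 and 7119.6 CPM in WT and 7149, 5839 and 7792 CPM in KO cells (log2 -0.56 ± 0.58, adjusted p = 0.871), and Il12b 2919, 2574 and 1727 CPM in WT and 1882, 964 and 1048 CPM in KO cells (log2 1.19 ± 0.83, adjusted p = 0.63). The interaction of Il12b was called in the compared groups alone with the replicate block (log2 1.30, adjusted p = 0.0461). A p above the threshold does not show that the responses were alike.

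Genes of the interferon response were among the largest differences between genotypes. Ifnb1 reached 214, 185 and 133 CPM in WT and 26.5, 14.3 and 4.13 CPM in KO microglia with LPS, against 0.052, 0 and 0.0987 CPM in WT and 0.241, 0.147 and 0.333 CPM in KO cells untreated (interaction log2 5.65 ± 1.29, adjusted p = 0.0135), a value that depends on the few untreated counts. Cxcl11 reached 130.1, 132 and 240.0 CPM in WT and 15, 14.5 and 3.32 CPM in KO cells with LPS (interaction log2 5.0 ± 0.88, adjusted p = 0.00256). Gbp4, a guanylate-binding protein gene that overlaps Gbp8 and Gbp9, reached 65.3, 85.6 and 162 CPM in WT and 11, 7.82 and 1.36 CPM in KO cells (log2 4.43 ± 1.03), and Plagl1, a zinc finger gene, 16.8, 21.3 and 22.4 CPM in WT and 1.95, 2.82 and 1.02 CPM in KO cells (log2 4.05 ± 0.98). In each of these 4 genes the lowest WT library with LPS was above the highest KO library with LPS. Of 36 interferon-stimulated genes 9 were called with a more positive response in WT and 0 with a more negative one, and of 18 MHC class I genes 5 and 0, of 21 cytokines 4 and 0, and of 24 NF-kB feedback genes 0 and 0. Among the falls, Cd300lb dropped to 1.98, 3.67 and 2.94 CPM in WT and 11, 13.5 and 23.9 CPM in KO cells (interaction log2 -2.45 ± 0.46, adjusted p = 0.00367), and Osgin1, an oxidative stress gene, to 1.73, 1.27 and 1.01 CPM in WT and 6.63, 8.22 and 11.9 CPM in KO cells (log2 -2.47 ± 0.45). Plk3, a stress kinase gene that overlaps Tctex1d4, stood at 7.1, 7.11 and 3.49 CPM in WT and 21.5, 20 and 39.2 CPM in KO cells with LPS, against 18.2, 23.6 and 9.52 CPM in WT and 19.6, 11.1 and 16 CPM in KO cells untreated (interaction log2 -2.32 ± 0.54, adjusted p = 0.0156). The interaction of Plk3 was no longer called without KO replicate 3 with LPS or WT untreated replicate 2 (adjusted p = 0.0569 and 0.0509) or with the compared groups alone (adjusted p = 0.0563), nor that of Gbp4 with those groups alone (adjusted p = 0.0538), nor that of Plagl1 without any of 4 single libraries, among them KO untreated replicate 2 (adjusted p = 0.08, the highest). Lyl1, among the falls given above, had an interaction of -2.26 ± 0.38 (adjusted p = 0.00161).

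No gene passed the threshold between LPS and fibronectin in the fit of all 24 libraries. Whether the FN preparation held any LPS is not given in the sources used here and cannot be read from these counts. Between WT microglia with LPS at 10 ng/ml and WT microglia with FN, 0 of 13294 genes were called by edgeR (percent called 0), and 0 by DESeq2 and by limma, while 105 (0.79%) had an unadjusted p under 0.05. That share is under the 0.05 that calibrated p-values give where no gene differs. The lack of calls therefore does not show that the stimuli acted alike. In the compared groups alone with the replicate block, 16 genes were called. Over 9157 genes with at least 5 CPM with LPS the median absolute log2 difference between the 2 stimuli was 0.06, and the median 95% half-width of that difference 0.39, against a median absolute change of 0.55 between LPS and untreated for the same genes. Il6 stood at 583, 497 and 768 CPM with LPS and 669, 485 and 694 CPM with FN, Ifnb1 at 214, 185 and 133 CPM with LPS and 199, 153 and 166 CPM with FN, and Cx3cr1 at 212, 192 and 148 CPM with LPS and 199.8, 208 and 169.7 CPM with FN. The largest absolute difference among the 9157 genes was 5.45 on the log2 scale.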

How the data were processed

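The 6 libraries and the other 18 of the series are RNA-seq of total RNA prepared with a TruSeq kit and sequenced on a HiSeq2000, per the labels' protocols. The authors' tools and build, per the submitters' processing notes, include HTSeq (0.5.4) and DESeq, Bowtie2 (2.1.0) with SAMtools (0.1.19), FastQC (0.10.0), CASAVA (1.8.2) and mm10; the annotation and the use of strand are not given in the sources used here. The deposited read counts cover 18919 gene symbols. The deposited normalized signal covers 12889 genes, and in each library it is the deposited count times 1 factor, with no gene off by more than 0.247 signal units in any of the 24 libraries; it was used for 1 alternative only.

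From the counts, edgeR 4.0.16 (R 4.3.3) fitted all 24 libraries in 8 groups with TMM scaling, filterByExpr (minimum count 10, minimum total 15), robust quasi-likelihood and 16 residual degrees of freedom; 13294 genes passed. p-values were adjusted by Benjamini-Hochberg over all of them and called under 0.05. The fits were tested on simulated data with few changed genes and no pairing of replicates. That test does not cover the pairing or the many changed genes of these data. Without the block, p-values set a change against the spread of libraries within groups, which includes shared differences between preparations. With the block those shared differences are taken out, and p-values rest on the spread that remains. 3 libraries a group limit the precision: the median 95% half-width of a log2 fold change was 0.52 over all genes and 0.44 over called genes. Pooled ratios carry exact 95% intervals, which cover counting error only, and a floor of 3 counts.

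Members and lists were chosen with earlier results of these data known. Genes could be named by this rule: 12 in any case; 15 rises and 15 falls, taken by size from called genes whose groups do not overlap, whose higher group has at least 5 CPM and whose lower group has more than 3 pooled counts; 8 genes at most with 3 or fewer such counts; per list, at most 4 members by size of a called change and at most 2 by level among those not called; and for dose and genotype 5 differences each way. Not every gene the rule allows is named. For the 15 rises and 15 falls, groups without overlap are a condition of the rule and not a result. Lists are described by counts and medians, with no test. Each count between LPS-treated and untreated cells, without the block, is to be read beside 23.3% of all genes called higher and 26.1% lower. Counts with the replicate block stand beside 34.1% and 36.1%. Those with library totals stand beside 1444 genes higher and 7408 lower of 13294. Overlaps between genes come from exons in the GENCODE mouse annotation, with RefSeq synonyms used to match older symbols.

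Replicate numbers pair the samples: over 9296 genes, deviations from group means correlated between 0.584 and 0.947 for WT libraries of the same number and between -0.739 and 0.297 for other pairs. The fit with the replicate number as a block nested in the genotype is given beside results it changes. Alternatives were RLE, upper quartile and total-count scaling, DESeq2 1.42.0, limma 3.58.1 on log2 of the normalized signal plus 1, no filter, a filter of 5 CPM in 3 libraries, the compared groups alone, and each library left out.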

Additional observations from a re-analysis of the deposited data

Results flagged for a closer look

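The response of microglia to LPS at 10 ng/ml differed between genotypes in 702 genes by a test of the difference itself (edgeR interaction term, adjusted p under 0.05), which is what singled out each value here. The interaction, coded as the WT response minus the KO response on the log2 scale, was 5.65 for Ifnb1, 5.0 for Cxcl11, 4.43 for Gbp4 and 4.05 for Plagl1, so the WT response was the more positive. It was -2.45 for Cd300lb, -2.47 for Osgin1, -2.32 for Plk3 and -2.26 for Lyl1, so the WT fall was the deeper, and Plk3 averaged higher with LPS than without it in KO cells. Among the gene lists, 9 of 36 interferon-stimulated genes, 5 of 18 MHC class I genes and 4 of 21 cytokine genes were called in the interaction, each with the more positive response in WT, as were 3.32% of all genes tested. Ifnb1 had few counts in untreated cells, so the size of its value depends on them.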

How the results depend on the processing

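The count of 6570 genes called between LPS-treated and untreated microglia lay between 5868 and 6196 when any 1 of the 6 libraries was left out (2789 to 3020 higher and 3079 to 3231 lower), at 6839 with DESeq2, 6612 with limma, 6404 with no filter, 6033 with the 5 CPM filter and 6355 with the compared groups alone. With the replicate block it was 9326, of which 6570 were the genes called without it. Library totals gave 1444 genes higher and 7408 lower. Between the doses, library totals gave 6957 calls and the block 7576, and leaving out a library gave 2929 to 3989. For the interaction with genotype, library totals gave 1192 calls, the compared groups alone 441, those groups with the replicate block 1968 and the block over all libraries 2887; leaving out a library gave 428 to 833, and DESeq2 1033. Between LPS and FN the compared groups with the block gave 16 calls, and every other alternative run, each library left out included, gave 0. The cause of these shifts was not tested. Fits with groups or libraries left out also had fewer libraries, and the part of that was not tested either.

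Of the genes named, those whose sign turned had not passed the test between LPS-treated and untreated cells, except Cs. With library totals the log2 fold change was -0.40 for Aldoa, -0.44 for C1qa, -0.56 for C1qc, -0.26 for C3ar1, -0.66 for Clock, -0.0833 for Cs, -0.55 for Ifngr2, -0.55 for Mki67, -0.59 for Pkm2, -0.24 for Spp1, -0.31 for Tgfb1 and -0.30 for Tlr7. With upper quartile scaling it was -0.0132 for C1qc, -0.11 for Clock, -0.00022 for Mki67 and -0.0516 for Pkm2. Jun turned to 0.00975 with DESeq2 and 0.011 with RLE scaling. Leaving out 1 library gave -0.454 to 0.126 for Jun, -0.147 to 0.551 for Pkm2, -0.171 to 0.00593 for Arntl and -0.331 to 0.0741 for Hmox1. The uncalled interactions lay between -0.407 and 0.301 for Tnf, between -0.442 and 0.0679 for Nfkbia and between -0.0452 and 0.801 for P2ry12 without 1 library, and that of Tnf was 0.0161 with the replicate block. With library totals Cdh5, Cnp, Kdr and Sall1 lost their calls, and P2ry12 was called in the compared groups alone (adjusted p = 0.0068). Genes not called were called without a block elsewhere: Aldoa, C1qa, Ifngr2 and Tlr7 with RLE scaling and DESeq2, C1qc and Tgfb1 with DESeq2, Bcl2a1d with limma, Tlr7 with the 5 CPM filter, Fn1, Runx1 and Tlr7 in the compared groups alone, Arntl, Csf1r, Cxcl14, Hpgds, Otud7b, P2ry12 and Runx1 with upper quartile scaling, and these 7 with Clec7a, Ctsd, Hmox1, Jun, Stab1, Tbxas1 and Tlr4 with library totals, all lower. Also called lower with library totals were Aldoa, C1qa, C1qc, Clock and Ifngr2, whose sign turned there (adjusted p between 0.000207 and 0.0271). Aldoa, C1qa and Ifngr2 were thus called in opposite directions with RLE scaling and with library totals. Bub1b lost its call with limma and with no filter, Kdr with upper quartile scaling and in the compared groups alone, and Sall1 with upper quartile scaling. Depth limits the genes near 0 in untreated cells, for which ratios carry wide intervals.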
